A study of Mus musculus with 19 samples.

Results

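Glucose, glycogen and insulin signaling genes were followed in mouse liver across a reproductive cycle. The members were 36 genes chosen by name, out of 51826 gene entries, as 6 genes of gluconeogenesis, 14 of glycolysis, 7 of glycogen metabolism, 4 of the pentose phosphate pathway and 5 of insulin and glucagon signaling. Liver RNA came from 19 female Balb/c (Balbc) mice, all given as 12 weeks old, for which the labels name no transgene or drug: 7 nulliparous mice, which had never given birth (NUL), 6 mice at lactation day 10 (LAC) and 6 mice that had been without pups for 6 days (involution day 6, ID6). Each value is a TPM, the transcripts of a gene per 1000000 transcripts of that mouse, which corrects for gene length, so that levels of different genes can be set side by side. TPM keeps no record of read depth, and only the spread between mice shows how precise a value is. Frozen liver tissue was measured without sorting cells, so fewer cells of a type and less RNA per cell cannot be told apart.

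The liver takes up glucose after a meal, stores it as glycogen, breaks it down to pyruvate for energy and for fat synthesis, and, between meals, makes glucose from lactate, amino acids and glycerol and releases it to the blood. Insulin pushes the liver toward storage and glycolysis, and glucagon pushes it toward glycogen breakdown and gluconeogenesis, partly through transcription of Pck1 and G6pc. The pentose phosphate pathway branches off glycolysis at glucose 6-phosphate and yields NADPH, which fat synthesis consumes. During lactation the mammary gland draws heavily on maternal glucose to make lactose and milk fat.

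The mice carry animal numbers, and these fall into a range under 200 (3 NUL and 3 LAC mice) and a range of 200 and above (4 NUL, 3 LAC and all 6 ID6 mice). The labels do not call the ranges batches, but the first principal component of all tested genes, with 34.5% of the variance, separated them without overlap, at -39.7 to -30.4 for the lower-numbered mice and 4.06 to 28.6 for the others. Results are therefore given also within a range, and wherever ID6 is compared with animals of the lower range, its stage cannot be told apart from the range. Hepatocyte markers were high in every mouse, with 8 genes summing to 62379 to 155702 TPM. Among 4 skeletal muscle markers the sum was 0 to 0.02 TPM in NUL mice of the higher range but reached 317 and 59.0 in NUL mice 1 and 4, both numbered under 200, and counts of genes are also given without these 2 mice. Of 171 pairs of mice, 0 were identical in all their values. The muscle sum reached 21.8 in LAC mice of the lower range and 9.02 in ID6 mice.

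The 36 genes differed widely in level. Mean TPM over all mice ran from 1.05 for Pck2, the mitochondrial form of PEP carboxykinase, to 983 for Fbp1, with a median of 108, and 19 genes were at 100 TPM or more. The 5 genes under 5 TPM were Pck2, Pfkfb3, Ppp1r3g, Irs1 and Foxo1, and since changes are on the scale of log2(TPM + 1), the change of such genes is understated. All 36 passed the filter of a mean of 0.1 TPM, and each was tested with limma-trend in a fit over 16230 genes, with Benjamini-Hochberg adjustment over all of them. A gene is said to have risen or fallen where its adjusted p was under 0.05.

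The first question was how these genes differed between the lactating and the nulliparous liver. Of the 36, 8 rose, 2 fell and 26 did not pass. The genes that rose were Slc37a4, Pfkfb1, Pgam1, Ugp2, Gbe1, G6pdx, Pgd and Tkt, and those that fell were Ldha and Gcgr. This is 22.2% of the members higher and 5.56% lower, against 2.72% of all tested genes higher and 6.49% lower (441 and 1053 genes, or 745 and 735 with each mouse rescaled by its median ratio to the others). The median change of the members was 0.14 on the log2 scale, beside -0.03 over all genes, and 25 of 36 had a positive sign. With a log2 change of at least 1 in size required as well, only G6pdx remained, where 0.746% of all genes passed. For 6 members (Pfkfb1, Pgam1, Ldha, Gbe1, Tkt and Gcgr) the values of the LAC and NUL mice did not overlap, which held for 3.27% of all genes.

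From lactation to involution, 4 members rose (G6pc, Ldha, Pygl and Gcgr), 10 fell (Slc37a4, Pfkfb1, Gapdh, Pgk1, Pgam1, Eno1, Ugp2, Gbe1, Pgd and Tkt) and 22 did not pass. That is 11.1% higher and 27.8% lower, while over all tested genes 18.1% were higher and 4.73% lower. Rescaling each mouse by its median ratio to the other mice turned the split of all genes from 2936 higher and 767 lower into 1302 and 1354, and that of the members into 2 and 11, as the median change of all genes moved from 0.10 to -0.01. Before that rescaling the members' median change was -0.07. Pfkfb1 was the only member that also changed by at least 1 on the log2 scale, against 1.93% of all genes. For 7 members (Slc37a4, Pfkfb1, Tpi1, Gapdh, Eno1, Ldha and Gcgr) the groups did not overlap, which held for 11.5% of all genes. The 2 comparisons share the 6 LAC mice, so a gene with extreme values in those mice moves in opposite directions in both.

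Between involution and the nulliparous liver, 2 members rose (Gpi1 and Pygl), 1 fell (Pfkfb1) and 33 did not pass, against 3.44% of all genes higher and 0.912% lower (559 and 148 genes, or 165 and 214 with median-ratio scaling). With that scaling the members' split was 0 higher and 2 lower, with Gpi1 (adjusted p = 0.103) and Pygl (adjusted p = 0.144) lost, Pfkfb1 at -0.75 (SE 0.17, adjusted p = 0.0309) and Fbp1 gained at -0.32 (SE 0.081, adjusted p = 0.0456). None of the 36 passed with a log2 change of at least 1, as 0.253% of all genes did, and none had groups that did not overlap, as 2.38% of all genes had. Among mice numbered 200 and above no member passed, and the 3 changes kept their sign there, at 0.27 for Gpi1, 0.40 for Pygl and -0.49 for Pfkfb1. These 3 calls were also lost with the range of animal number as a covariate (adjusted p = 0.0686, 0.145 and 0.105) and without NUL mice 1 and 4, and every ID6 mouse is of the higher range.

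**Figure D1:**
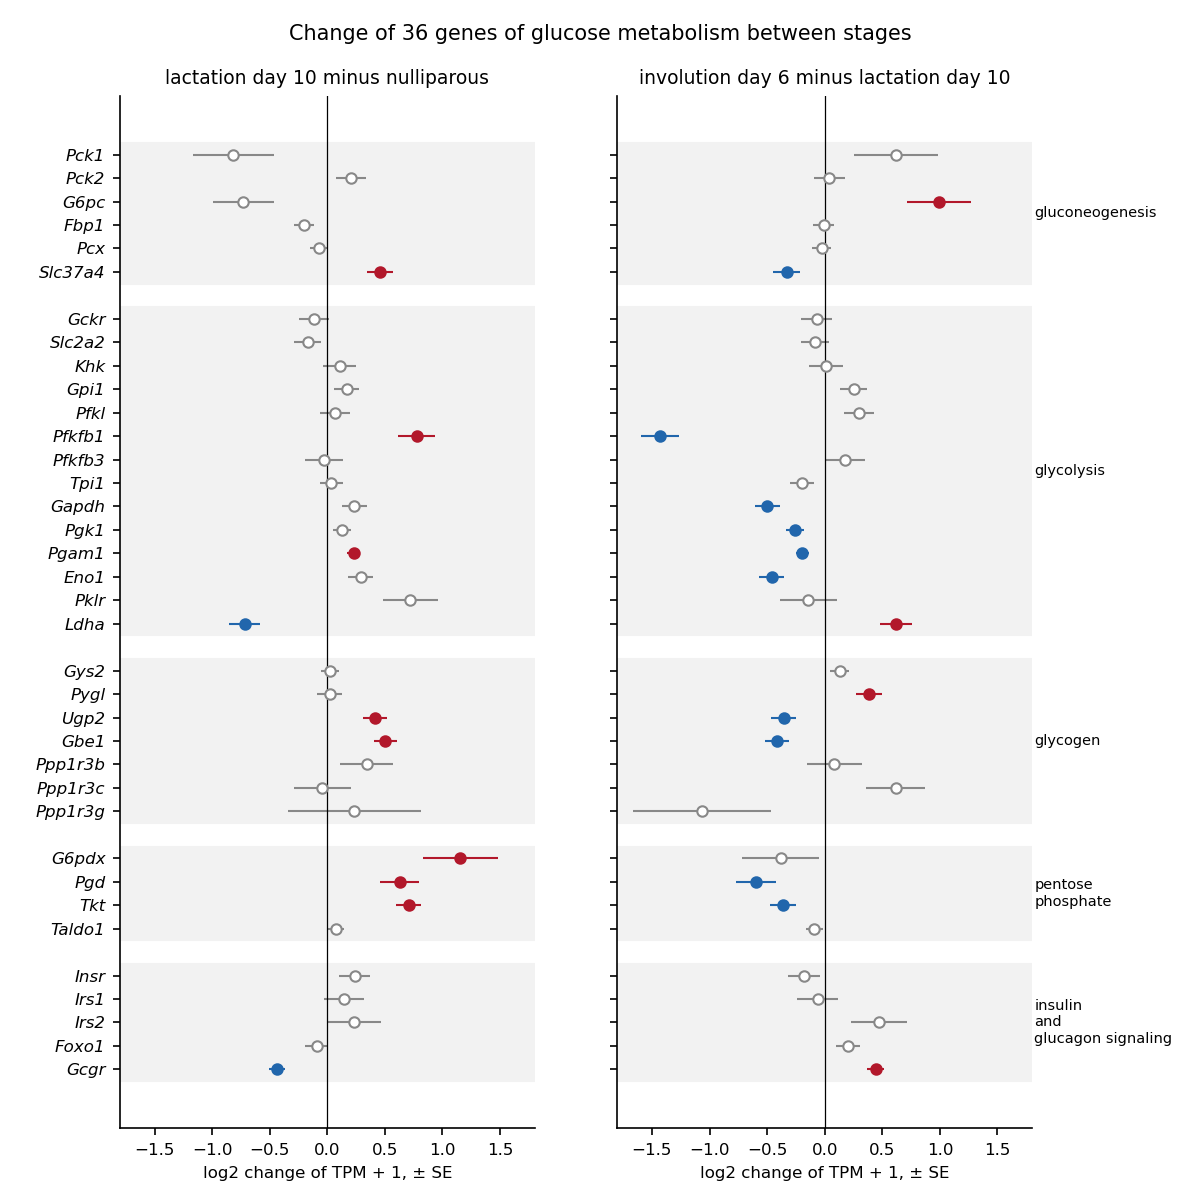
Points give the log2 change of TPM + 1 for each of the 36 genes, with bars of 1 SE, at lactation day 10 against nulliparous (left, 6 LAC and 7 NUL mice) and at involution day 6 against lactation day 10 (right, 6 ID6 and 6 LAC mice), grouped by pathway. Filled red points rose and filled blue points fell with an adjusted p under 0.05, and open points did not pass. Pfkfb1 had the largest fall on the right (-1.43) and G6pdx the largest rise on the left (1.16).

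Gluconeogenesis ends with glucose-6-phosphatase, which G6pc encodes and which works in the endoplasmic reticulum together with Slc37a4, the transporter that carries glucose 6-phosphate into it. The TPM of G6pc ran from 134 to 335 in the NUL mice, with a median of 276, from 80.2 to 249 in the LAC mice, with a median of 157, and from 217 to 352 in the ID6 mice, with a median of 282. At lactation the lower values overlapped with those of NUL mice and the change of -0.73 (SE 0.27, adjusted p = 0.0984) did not pass, whereas at involution G6pc was 0.99 (SE 0.28, adjusted p = 0.015) above lactation. All 6 ID6 mice lay above 5 of the 6 LAC mice. Among mice numbered 200 and above the rise was 1.08 (SE 0.30, adjusted p = 0.031), and with median-ratio scaling it was 0.83 and no longer passed (adjusted p = 0.0548).

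The TPM of Slc37a4 ran from 64.0 to 106 in the NUL mice, with a median of 72.3, from 97.2 to 134 in the LAC mice, with a median of 103, and from 72.1 to 93.8 in the ID6 mice, with a median of 87.2. Its rise at lactation was 0.46 (SE 0.11, adjusted p = 0.0153), at 0.38 (SE 0.20) among mice numbered under 200 and 0.55 (SE 0.13) among those numbered 200 and above. Its change at involution was -0.33 (SE 0.12, adjusted p = 0.0496), just inside the threshold, and it held in only 5 of 19 fits that each left out 1 mouse, although the ID6 mice lay below every LAC mouse. It was -0.44 (SE 0.12, adjusted p = 0.0238) among mice numbered 200 and above, -0.40 (SE 0.13, adjusted p = 0.0407) with the range as a covariate and -0.49 (SE 0.13, adjusted p = 0.0118) with median-ratio scaling. G6pc and Slc37a4 had opposite signs in both comparisons, although the lactation change of G6pc did not pass.

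Pck1, the cytosolic PEP carboxykinase that commits oxaloacetate to gluconeogenesis, ranged over 367 to 1176 TPM in NUL, 173 to 726 in LAC and 275 to 1169.7 in ID6 mice, a spread of several fold inside each stage, and its lactation change of -0.82 (SE 0.35, adjusted p = 0.163) did not pass. Within the ranges that change was -0.10 (SE 0.39) among mice numbered under 200 and -1.49 (SE 0.43) among those numbered 200 and above, and the difference between them did not pass either (adjusted p = 0.313). The mitochondrial form Pck2 stood at 0.841 ± 0.257, 1.16 ± 0.505 and 1.19 ± 0.281 TPM (mean ± SD) in NUL, LAC and ID6, the order in which such values are given from here on. Fbp1, fructose-1,6-bisphosphatase, was at 1074 ± 125, 931 ± 68.1 and 929 ± 126, with a lactation change of -0.20 (SE 0.087, adjusted p = 0.167). Pyruvate carboxylase, Pcx, was at 169 ± 14.1, 161 ± 19.95 and 157 ± 10.9. None of these 4 genes passed between any stages, apart from the rescaled value of Fbp1 given above.

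Promoters are shown for genes that changed with lactation or involution, as 250 bases before to 50 after a transcription start in RefSeq on GRCm38, read 5′ to 3′ along the gene. Such a promoter was found for 33 of the 36 members, 46 promoters in all, since 9 members have several starts. The letters searched on both strands were CACGTG (an E-box), TGACG (the core of a cAMP response element, CRE), TGACGTCA (a full CRE, which holds TGACG on both strands), TGTTTAC (a FoxO and Foxa type site) and TATAAA. Among all 32851 promoters of this length 7.15% held CACGTG, 20.8% TGACG, 1.79% TGACGTCA, 3.65% TGTTTAC and 13.6% TATAAA, and among the 46 it was 15.2%, 26.1%, 2.17%, 0 and 8.70%. A match is a string of letters and not a measured site. The G6pc promoter is at chr11:101367466-101367765 on the plus strand, with TATAAA in capitals at -29 to -24 from the start, and held no other string searched.
G6pc promoter: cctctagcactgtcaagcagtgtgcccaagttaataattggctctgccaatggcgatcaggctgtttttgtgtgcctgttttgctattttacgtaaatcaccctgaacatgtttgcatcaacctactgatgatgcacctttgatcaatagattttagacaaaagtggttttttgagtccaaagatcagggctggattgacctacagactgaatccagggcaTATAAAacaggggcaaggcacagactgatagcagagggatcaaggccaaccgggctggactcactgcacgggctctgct

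Glycolysis is steered by fructose 2,6-bisphosphate, which Pfkfb1, the liver form of the bifunctional 6-phosphofructo-2-kinase and fructose-2,6-bisphosphatase, makes and breaks down. The TPM of Pfkfb1 ran from 7.71 to 16.4 in the NUL mice, with a median of 12.6, from 17.6 to 34.2 in the LAC mice, with a median of 19.8, and from 6.00 to 9.73 in the ID6 mice, with a median of 7.00. Every LAC mouse was above every NUL mouse and every ID6 mouse. The rise at lactation was 0.78 (SE 0.16, adjusted p = 0.00405), at 0.71 (SE 0.23) among mice numbered under 200 and 0.79 (SE 0.17) among those numbered 200 and above. At involution Pfkfb1 fell by 1.43 on the log2 scale (SE 0.16, adjusted p = 9.01e-06), or by 1.28 (SE 0.16, adjusted p = 0.00025) among mice numbered 200 and above. Against NUL mice the ID6 level differed by -0.65 (SE 0.16), with overlapping values. A LAC mouse numbered under 200, at 34.2 TPM, lay far above the other 5, and without it the lactation change was 0.64. The gene lies at chrX:150588229-150643878 on the plus strand, and RefSeq lists 4 starts, which gene-level TPM does not separate.

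Ldha, the lactate dehydrogenase subunit that interconverts pyruvate and lactate, went the other way. The TPM of Ldha ran from 527 to 977 in the NUL mice, with a median of 574, from 297 to 441 in the LAC mice, with a median of 401, and from 502 to 666 in the ID6 mice, with a median of 615. Every LAC mouse was below every NUL and every ID6 mouse. Ldha fell at lactation by 0.72 on the log2 scale (SE 0.13, adjusted p = 0.00208), at -0.69 (SE 0.096) among mice numbered under 200 and -0.70 (SE 0.16) among those numbered 200 and above, and it passed in each range alone. At involution it rose by 0.62 (SE 0.14, adjusted p = 0.00344), which was 0.44 (SE 0.15, adjusted p = 0.0703) among mice numbered 200 and above. Of the 2 starts in RefSeq, the one shown (chr7:46845554-46845853, plus strand) held CACGTG at -145 to -140 and at -48 to -43 and TGACGTCA at -12 to -5, in capitals, and was the only member promoter with a full CRE.
Ldha promoter: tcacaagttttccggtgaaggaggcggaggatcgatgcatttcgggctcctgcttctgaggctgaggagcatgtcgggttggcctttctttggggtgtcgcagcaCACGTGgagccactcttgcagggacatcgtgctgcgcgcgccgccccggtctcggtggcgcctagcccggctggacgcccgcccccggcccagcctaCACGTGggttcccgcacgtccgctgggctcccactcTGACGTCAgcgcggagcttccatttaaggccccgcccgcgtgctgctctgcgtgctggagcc

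Among the enzymes of the later steps of glycolysis, which act between the triose phosphates and pyruvate, 4 fell from lactation to involution. Gapdh, which oxidizes glyceraldehyde 3-phosphate, ranged over 504 to 836 TPM in NUL, 739 to 833 in LAC and 492 to 685 in ID6 mice, and every ID6 mouse was below every LAC mouse. It fell by 0.50 on the log2 scale (SE 0.11, adjusted p = 0.00352). Eno1, enolase, ranged over 125 to 208, 194 to 243 and 136 to 183 TPM and fell by 0.46 (SE 0.11, adjusted p = 0.00516), also without overlap. Pgam1, phosphoglycerate mutase, was narrow in every stage, at 178 to 212, 219 to 249 and 177 to 228 TPM. It rose at lactation by 0.23 (SE 0.057, adjusted p = 0.0166), at 0.21 (SE 0.058) among mice numbered under 200 and 0.24 (SE 0.086) among those numbered 200 and above, and changed at involution by -0.19 (SE 0.059, adjusted p = 0.0249). Pgk1, phosphoglycerate kinase, was at 250.4 ± 24.2, 274 ± 31.0 and 228 ± 11.9 TPM (mean ± SD), with an involution change of -0.26 (SE 0.08, adjusted p = 0.0257). Among mice numbered 200 and above the involution changes were -0.45 for Gapdh, -0.54 for Eno1, -0.37 for Pgk1 and -0.21 for Pgam1, and only that of Pgam1 did not pass there (adjusted p = 0.107). Tpi1, triosephosphate isomerase, was at 235 to 440.2 TPM in NUL, 328 to 363 in LAC and 286 to 321 in ID6 mice. The LAC and ID6 mice did not overlap, but the change of -0.19 (SE 0.10, adjusted p = 0.188) did not pass. At lactation the changes of Gapdh (0.23, SE 0.11, adjusted p = 0.199), Eno1 (0.29, SE 0.11, adjusted p = 0.0945), Pgk1 (0.13, SE 0.077, adjusted p = 0.339) and Tpi1 (0.04, SE 0.1, adjusted p = 0.874) did not pass over all mice, while Eno1 rose by 0.52 (SE 0.13, adjusted p = 0.0319) among mice numbered 200 and above and differed by 0.01 (SE 0.061, adjusted p = 0.969) among those numbered under 200.

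RSEM divides reads that fit several copies of a gene, and the table also lists near-identical copies of 6 members, so the values of these 6 are uncertain to that extent. Eno1b, a copy of Eno1, had a mean of 91.0 TPM and the highest of the Pgam1 copies 23.8 TPM, while the copies of Tpi1, Gapdh, Pgk1 and Ldha were each at or below 0.704 TPM.

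Pklr, the liver pyruvate kinase that completes glycolysis, ranged over 93.1 to 175 TPM in NUL, 128 to 355 in LAC and 124 to 316 in ID6 mice, and its lactation change of 0.72 (SE 0.24, adjusted p = 0.064) did not pass over all mice. The LAC values split by range, at 128 to 174 TPM under 200 and 288 to 355 at 200 and above. Within the ranges the change was 0.46 (SE 0.18) among mice numbered under 200 and 1.05 (SE 0.23) among those numbered 200 and above, with adjusted p of 0.202 and 0.014. From lactation to involution Pklr changed by -0.14 (SE 0.25, adjusted p = 0.719) over all mice. That change was -0.67 (SE 0.21, adjusted p = 0.0486) among mice numbered 200 and above and -0.51 (SE 0.20, adjusted p = 0.0827) with the range as a covariate. At the entry to glycolysis and around it, Slc2a2, the liver glucose transporter GLUT2, was at 128 ± 24.9, 112 ± 10.4 and 106 ± 15.6 TPM. Gckr, a regulator of glucose phosphorylation, was at 107 ± 16.2, 98.9 ± 19.7 and 93.8 ± 16.2. Khk, ketohexokinase, which phosphorylates fructose, was at 348 ± 61.0, 376 ± 71.0 and 379.8 ± 76.6. Gpi1, glucose-6-phosphate isomerase, was at 108 ± 15.96, 122 ± 22.7 and 143 ± 11.8, and Pfkl, the liver phosphofructokinase subunit, at 21.9 ± 4.17, 23.0 ± 4.70 and 28.2 ± 2.74. Pfkfb3, another form of the bifunctional enzyme, stayed low at 1.43 ± 0.27, 1.43 ± 0.522 and 1.78 ± 0.803. Of these 7 genes only Gpi1 passed between stages over all mice, at involution against NUL (0.42, SE 0.11, adjusted p = 0.0408). With the range of animal number as a covariate that call was lost, and Pklr (0.78, SE 0.17, adjusted p = 0.00453) and Gpi1 (0.20, SE 0.06, adjusted p = 0.0323) passed at lactation, as Pklr also did with median-ratio scaling (0.78, SE 0.22, adjusted p = 0.0331).

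**Figure D2:**
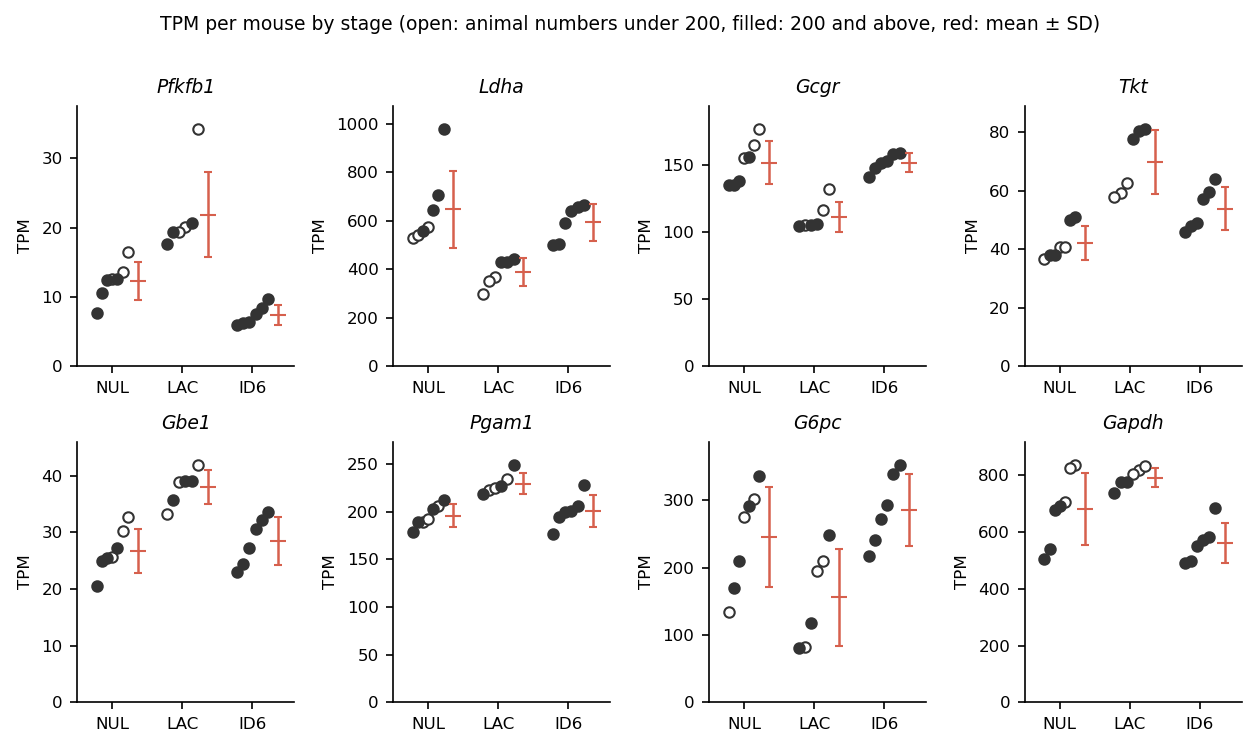
Each point is the TPM of 1 mouse by stage (NUL n = 7, LAC n = 6, ID6 n = 6) for 8 genes that changed between stages, open for animal numbers under 200 and filled for 200 and above, with the mean ± SD in red. Pfkfb1, Tkt and Gbe1 were higher, and Ldha and Gcgr lower, in every LAC mouse than in every NUL mouse.

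Glycogen is built from UDP-glucose, which Ugp2 makes, by glycogen synthase (Gys2) and the branching enzyme (Gbe1), and it is broken down by the liver phosphorylase (Pygl). The TPM of Gbe1 ran from 20.5 to 32.7 in the NUL mice, with a median of 25.6, from 33.2 to 41.8 in the LAC mice, with a median of 39.0, and from 23.1 to 33.5 in the ID6 mice, with a median of 28.9. All LAC mice were above all NUL mice, and the ID6 values overlapped with both. Gbe1 rose at lactation by 0.50 (SE 0.10, adjusted p = 0.00377), at 0.35 (SE 0.12) among mice numbered under 200 and 0.62 (SE 0.13) among those numbered 200 and above, and changed at involution by -0.41 (SE 0.10, adjusted p = 0.00804). Ugp2 ranged over 134 to 241 TPM in NUL, 188 to 264 in LAC and 158 to 195 in ID6 mice. It rose at lactation by 0.41 (SE 0.11, adjusted p = 0.0187), at 0.28 (SE 0.20) among mice numbered under 200 and 0.51 (SE 0.099) among those numbered 200 and above, and changed at involution by -0.36 (SE 0.11, adjusted p = 0.0258). With the range as a covariate the involution change of Ugp2 was -0.28 (SE 0.12, adjusted p = 0.111) and did not pass, while it was -0.34 (SE 0.092, adjusted p = 0.0236) among mice numbered 200 and above. Gys2 did not pass in any comparison, at 43.0 ± 2.83, 44.0 ± 5.75 and 47.9 ± 3.997 TPM.

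The TPM of Pygl ran from 172 to 237 in the NUL mice, with a median of 196, from 169 to 256 in the LAC mice, with a median of 208, and from 236 to 297 in the ID6 mice, with a median of 279. Its lactation change did not pass over all mice, at 0.02 (SE 0.11, adjusted p = 0.932). Within the ranges that change was -0.23 (SE 0.061, adjusted p = 0.0899) among mice numbered under 200 and 0.28 (SE 0.11, adjusted p = 0.158) among those numbered 200 and above. The difference between the ranges did not pass (adjusted p = 0.192). Pygl rose at involution by 0.39 (SE 0.11, adjusted p = 0.0177). In LAC mice Pygl split by range, at 169 to 176 TPM under 200 and 241 to 256 at 200 and above, and among mice numbered 200 and above the involution change was 0.13 (SE 0.10, adjusted p = 0.458). It was 0.26 (SE 0.11, adjusted p = 0.1) with the range as a covariate and 0.22 (SE 0.12, adjusted p = 0.215) with median-ratio scaling. Against NUL the ID6 level was 0.41 (SE 0.11, adjusted p = 0.0395) over all mice and 0.40 (SE 0.092, adjusted p = 0.0686) within the higher range.

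The 3 glycogen-targeting subunits of protein phosphatase 1 bring the phosphatase to glycogen, where it activates glycogen synthase. Ppp1r3b was at 38.4 ± 11.6, 48.0 ± 12.3 and 51.3 ± 14.5 TPM in NUL, LAC and ID6, and Ppp1r3c at 67.5 ± 23.1, 66.3 ± 25.8 and 99.2 ± 28.0. Ppp1r3g varied widely between mice. It was at 1.84, 3.15 and 19.5 TPM in the NUL mice numbered under 200 and 0.16 to 0.47 in the other 4, at 1.08, 6.98 and 7.66 in the lower-numbered LAC mice and 0.27 to 1.01 in the other 3, and at 0.26 to 0.67 in ID6 mice. The lower-numbered mice were above the others in both stages without overlap. None of the 3 subunits passed between stages.

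All 4 genes of the pentose phosphate pathway had a positive sign at lactation, and 3 of them rose. Tkt, transketolase, which links the pathway back to glycolysis, had the smallest adjusted p of all 36 in that comparison. The TPM of Tkt ran from 36.7 to 51.2 in the NUL mice, with a median of 40.8, from 58.0 to 81.1 in the LAC mice, with a median of 70.3, and from 45.9 to 63.9 in the ID6 mice, with a median of 53.0. All LAC mice were above all NUL mice. Tkt rose by 0.71 (SE 0.11, adjusted p = 0.00043), at 0.59 (SE 0.069) among mice numbered under 200 and 0.84 (SE 0.13) among those numbered 200 and above, and passed in each range alone. At involution it changed by -0.36 (SE 0.11, adjusted p = 0.025), or -0.57 (SE 0.12, adjusted p = 0.00739) among mice numbered 200 and above, and the call over all mice held in 13 of 19 fits that each left out 1 mouse. The promoter of Tkt (chr14:30548881-30549180, plus strand) is shown as that of the member with the smallest adjusted p at lactation, and held none of the strings searched.
Tkt promoter: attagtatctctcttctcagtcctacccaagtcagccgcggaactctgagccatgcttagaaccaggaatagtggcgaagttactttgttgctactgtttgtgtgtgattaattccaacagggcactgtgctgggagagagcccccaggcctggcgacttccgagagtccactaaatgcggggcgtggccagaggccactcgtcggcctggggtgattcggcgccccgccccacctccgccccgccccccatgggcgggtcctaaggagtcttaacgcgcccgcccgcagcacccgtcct

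G6pdx, glucose-6-phosphate dehydrogenase, which opens the pathway and makes NADPH, had a median of 3.45 TPM in NUL mice (range 1.85 to 5.99), 9.63 in LAC mice (range 3.78 to 21.4) and 6.82 in ID6 mice (range 3.64 to 13.4). The LAC values fell apart by range, with 3.78 to 5.72 TPM under 200, overlapping with NUL mice, and 13.6 to 21.4 at 200 and above, over every NUL mouse. Its rise was 1.16 (SE 0.32, adjusted p = 0.0294) over all mice, and 0.66 (SE 0.22) among mice numbered under 200 and 1.72 (SE 0.30) among those numbered 200 and above. With the range as a covariate the rise was 1.23 (SE 0.24, adjusted p = 0.00184). It passed among mice numbered 200 and above (adjusted p = 0.00513) but not among those numbered under 200 (adjusted p = 0.151). The call over all mice was lost without NUL mice 1 and 4 (adjusted p = 0.0844), both of the lower range, in a fit that did not include the range. That call held in 15 of 19 fits that each left out 1 mouse. The exceptions were NUL mouse 4 and each of the 3 LAC mice of the higher range. At involution the change was -0.38 (SE 0.33, adjusted p = 0.44) over all mice, -0.87 (SE 0.27, adjusted p = 0.037) with the range as a covariate and -1.15 (SE 0.28, adjusted p = 0.0154) within the higher range.

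Pgd, 6-phosphogluconate dehydrogenase, the other step that makes NADPH, ranged over 20.1 to 34.6 TPM in NUL, 30.5 to 63.6 in LAC and 23.2 to 37.4 in ID6 mice, with overlap in each comparison. Its rise at lactation was 0.63 (SE 0.17, adjusted p = 0.0236) over all mice and 0.67 (SE 0.10, adjusted p = 0.000192) with the range as a covariate. It was 0.52 (SE 0.12, adjusted p = 0.0766) among mice numbered under 200 and 0.81 (SE 0.13, adjusted p = 0.00379) among those numbered 200 and above. In fits that did not include the range, it no longer passed without NUL mice 1 and 4 (adjusted p = 0.0828), both of the lower range. Nor did it pass there without any 1 of the 3 LAC mice of the higher range. From lactation to involution Pgd changed by -0.60 (SE 0.17, adjusted p = 0.0191), and by -0.97 (SE 0.12, adjusted p = 0.000281) among mice numbered 200 and above. Taldo1, transaldolase, was at 149 ± 11.4, 158 ± 16.1 and 148 ± 9.54 TPM, and passed in no comparison between stages over all mice without rescaling. From lactation to involution it changed there by -0.09 (SE 0.071, adjusted p = 0.39). The change was -0.21 (SE 0.062, adjusted p = 0.0342) among mice numbered 200 and above and -0.25 (SE 0.079, adjusted p = 0.0338) with median-ratio scaling. With the range as a covariate it was -0.14 (SE 0.074, adjusted p = 0.225).

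Gcgr encodes the glucagon receptor, by which hepatocytes sense the hormone that calls for glucose release. The TPM of Gcgr ran from 136 to 177 in the NUL mice, with a median of 155, from 104 to 132.7 in the LAC mice, with a median of 106, and from 141 to 159.5 in the ID6 mice, with a median of 152. Every LAC mouse was below every NUL mouse and every ID6 mouse, and the 3 LAC mice numbered 200 and above lay within 104 to 106 TPM. Gcgr fell at lactation by 0.44 on the log2 scale (SE 0.071, adjusted p = 0.000711), at -0.49 (SE 0.1) among mice numbered under 200 and -0.42 (SE 0.063) among those numbered 200 and above. At involution it rose by 0.44 (SE 0.074, adjusted p = 0.000287), and ID6 mice differed from NUL mice by 0.01 (SE 0.071, adjusted p = 0.966). With median-ratio scaling the involution rise was 0.28 (SE 0.09, adjusted p = 0.0384). Its promoter (chr11:120530477-120530776, plus strand) held none of the strings searched.
Gcgr promoter: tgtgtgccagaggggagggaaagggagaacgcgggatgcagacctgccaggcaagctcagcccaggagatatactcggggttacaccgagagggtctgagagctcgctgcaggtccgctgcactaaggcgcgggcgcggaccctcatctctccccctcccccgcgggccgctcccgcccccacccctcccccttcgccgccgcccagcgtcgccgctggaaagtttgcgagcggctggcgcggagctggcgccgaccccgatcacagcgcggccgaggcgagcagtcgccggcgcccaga

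The other 4 signaling genes act on the insulin side, and none passed between stages. Insr, the insulin receptor, was at 17.0 ± 1.197, 20.9 ± 6.14 and 18.0 ± 3.17 TPM in NUL, LAC and ID6. Irs1 and Irs2, the adapters that the receptor phosphorylates, were at 2.67 ± 0.435, 3.15 ± 1.098 and 2.99 ± 1.05 and at 5.65 ± 1.96, 6.93 ± 2.55 and 9.89 ± 3.28. Foxo1, the transcription factor that insulin keeps out of the nucleus, was at 3.03 ± 0.451, 2.80 ± 0.621 and 3.34 ± 0.417. The largest of their changes was that of Irs2 at involution against NUL, 0.70 (SE 0.24, adjusted p = 0.0886), with overlapping values. Within the ranges the lactation change of Irs2 was 0.77 (SE 0.18) among mice numbered under 200 and -0.26 (SE 0.32) among those numbered 200 and above, and the difference between the ranges did not pass (adjusted p = 0.278).

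Among NUL and LAC mice, with stage in the fit, the animals numbered 200 and above were then compared with those numbered under 200. Of the members 9 were higher (Pck2, Gpi1, Pfkl, Pklr, Ldha, Ppp1r3c, G6pdx, Pgd and Tkt) and 4 lower (Gckr, Gapdh, Ppp1r3g and Gcgr), against 16.5% of all genes higher and 9.11% lower (2670 and 1479 genes, or 1894 and 1980 with median-ratio scaling). With that scaling Ldha (adjusted p = 0.0706) and Tkt (adjusted p = 0.123) no longer passed, and Tpi1 was lower (-0.31, SE 0.11, adjusted p = 0.0483). Without NUL mice 1 and 4 the members numbered 6 higher and 2 lower, and Gapdh, Ldha, Ppp1r3c, Tkt and Gcgr no longer passed. Ppp1r3g had the largest difference, -1.97 (SE 0.44, adjusted p = 0.00583), followed by G6pdx at 0.97 (SE 0.21, adjusted p = 0.00523) and Pklr at 0.74 (SE 0.13, adjusted p = 0.00137). Gpi1 (0.41, SE 0.055, adjusted p = 0.000194) and Pfkl (0.46, SE 0.067, adjusted p = 0.000358) were smaller in size. In both stages every mouse numbered under 200 lay below every mouse numbered 200 and above for Gpi1 and Pfkl. Of the 13 genes, 6 (Pck2, Gckr, Pfkl, Pklr, Ppp1r3c and Ppp1r3g) passed in no comparison between stages, and 14 of the 36 passed in none of the 4 comparisons.

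**Figure D3:**
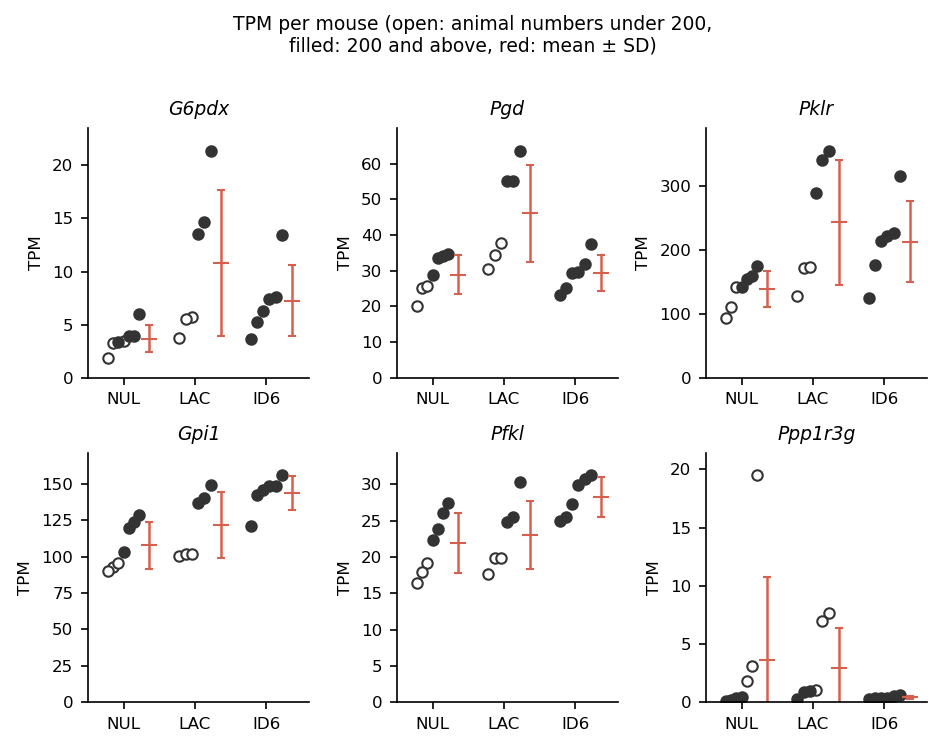
Each point is the TPM of 1 mouse by stage (NUL n = 7, LAC n = 6, ID6 n = 6) for 6 genes that differed between ranges of animal number, open for numbers under 200 and filled for 200 and above, with the mean ± SD in red (lower bars cut at 0). In LAC mice the open points lie below the filled ones for G6pdx, Pgd, Pklr, Gpi1 and Pfkl and above them for Ppp1r3g.

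The lactation change itself was compared between the ranges through an interaction term. No member passed at an adjusted p under 0.05, beside 0.111% of all genes, and the smallest adjusted p was 0.184, for Khk. An unadjusted p under 0.05 was found for 13 of the 36 members, a larger share than among all genes (2161 of 16230, or 13.3%). All 10 genes that passed over all mice had the same sign in both ranges, and 22 of the 36 did. The 10 were selected on these same mice, which favors an equal sign, so their signs are not an independent repeat. Genes of opposite sign included, under 200 and at 200 and above, Khk (-0.27, SE 0.097, and 0.44, SE 0.19) and Tpi1 (-0.22, SE 0.079, and 0.23, SE 0.098). Insr was at 0.51 (SE 0.18) and -0.02 (SE 0.15). Khk, Tpi1 and Insr did not pass in either range. Among mice numbered 200 and above 11 members passed, 9 of them also over all mice, against 7.07% of all genes in that fit. That fit compared 4 NUL with 3 LAC mice, but the 6 ID6 mice also entered its estimate of the spread. Among the 6 mice numbered under 200 only Ldha and Tkt passed, against 3.28% of all genes. The counts of these fits thus rest on unlike numbers of mice.

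**Figure D4:**
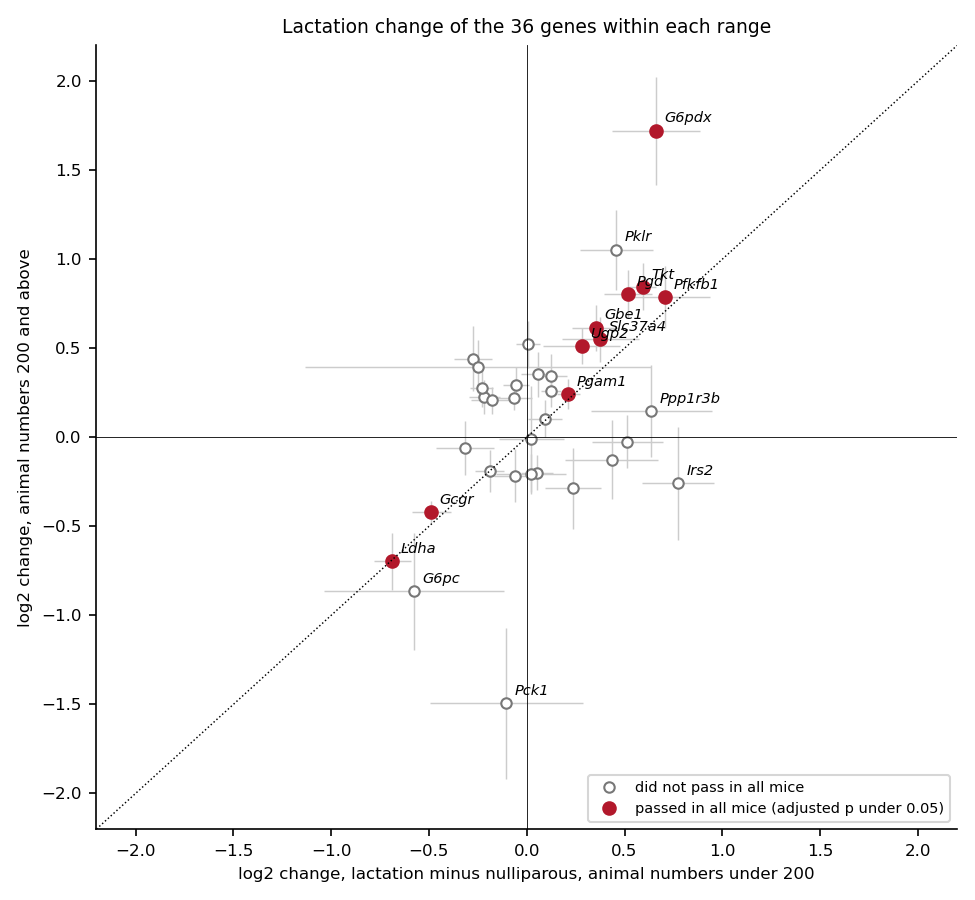
Each point is 1 of the 36 genes, with its log2 change at lactation among 6 mice numbered under 200 on the x axis and among 7 mice numbered 200 and above on the y axis, bars of 1 SE and a dotted line of equal change. The SE on the y axis is from a fit that also held the 6 ID6 mice. The 10 genes that passed over all mice (filled red) lie in the quadrants of equal sign, which their selection on these same mice favors. Among them G6pdx has the widest distance from the line, at 0.66 and 1.72.

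The rest of the same pathways was read from lists of 126 other genes, of which 125 were in the table and 121 tested. At lactation 4 rose and 3 fell, at involution against lactation 10 rose and 11 fell, and at involution against NUL 3 rose and 3 fell, and between the ranges 21 were higher and 19 lower. These are 3.31% higher and 2.48% lower at lactation (all genes 2.72% and 6.49%), 8.26% and 9.09% at involution against lactation (18.1% and 4.73%), 2.48% and 2.48% at involution against NUL (3.44% and 0.912%) and 17.4% and 15.7% between the ranges (16.5% and 9.11%). In each list the largest rise and fall are taken among the genes that passed. In the gluconeogenesis list the largest lactation rise was that of Gpt2, the mitochondrial alanine aminotransferase, at 0.83 (SE 0.17, adjusted p = 0.00435), from 56.1 ± 13.8 to 99.4 ± 18.2 TPM, and at involution it was again the largest fall, at -0.86 (SE 0.18, adjusted p = 0.00171). Aqp9, the glycerol channel of hepatocytes, had the largest lactation fall, -0.57 (SE 0.14, adjusted p = 0.0123), which did not pass without NUL mice 1 and 4. Mpc2, a subunit of the mitochondrial pyruvate carrier, rose most at involution (0.24, SE 0.061, adjusted p = 0.00751), and Got2, mitochondrial aspartate aminotransferase, was lower at involution than in NUL mice (-0.21, SE 0.055, adjusted p = 0.0387).

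In the glycolysis and pyruvate list Aldoc, an aldolase, rose most at lactation, 0.76 (SE 0.12, adjusted p = 0.000645), from 7.07 ± 1.27 to 12.6 ± 1.63 TPM, and had the largest fall at involution, -1.30 (SE 0.13, adjusted p = 1.88e-06), to 4.53 ± 0.945 TPM. Hk1, a hexokinase of most tissues, fell most at lactation (-0.35, SE 0.099, adjusted p = 0.0306). Hk3, a hexokinase known from white blood cells, rose most at involution against lactation (0.99, SE 0.13, adjusted p = 3.76e-05) and against NUL (0.68, SE 0.13, adjusted p = 0.00749), and was at 2.503 ± 0.456 TPM in ID6 mice. Pdp2, a phosphatase that activates pyruvate dehydrogenase, was the largest fall at involution against NUL (-0.57, SE 0.11, adjusted p = 0.0109). In the glycogen list only Phkb and Stbd1 passed between stages, both lower at involution than at lactation, Stbd1 with the larger change (-0.63, SE 0.21, adjusted p = 0.04), and among the other pentose phosphate genes none of 7 tested did.

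On the hormone side, Akt1, a kinase downstream of the insulin receptor, rose most of the insulin list at involution (0.45, SE 0.15, adjusted p = 0.0352), and Foxo4 was higher there than in NUL mice (0.38, SE 0.091, adjusted p = 0.0271). In the glucagon list Pde3b, a phosphodiesterase that breaks down cAMP, rose at lactation (0.37, SE 0.1, adjusted p = 0.0271) and Prkacb, a catalytic subunit of protein kinase A, at involution (0.22, SE 0.076, adjusted p = 0.0412), each as the only gene of its list in that comparison. Srebf1, the transcription factor SREBP1 of fat synthesis, rose most of the transcription factors, by 0.91 (SE 0.3, adjusted p = 0.034) against lactation and 1.51 (SE 0.29, adjusted p = 0.00865) against NUL. Among mice numbered 200 and above neither Srebf1 change passed, and the changes named for Akt1, Prkacb, Foxo4, Got2, Stbd1, Pde3b and, against NUL, Hk3 did not pass there either. With median-ratio scaling the changes of Akt1, Prkacb, Foxo4, Mpc2 and, against lactation, Srebf1 did not pass.

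Between the ranges, Igfbp1, a secreted binding protein that insulin represses and fasting raises, had the largest fall of the insulin list, -2.61 (SE 0.48, adjusted p = 0.0017), at 19.4 ± 10.8 TPM in 7 mice numbered 200 and above and 119 ± 64.2 in 6 numbered under 200, and Grb10, an adapter that dampens insulin receptor signals, had its largest rise, 1.87 (SE 0.077, adjusted p = 6.12e-09). Srebf1 was higher (0.97, SE 0.2, adjusted p = 0.00389) and Mlxipl, the glucose-sensing factor ChREBP, lower (-0.52, SE 0.14, adjusted p = 0.013) in mice numbered 200 and above. The other largest differences of their lists were those of Gpd1 (0.69) and the dicarboxylate carrier Slc25a10 (-0.74), Pdk2 (-0.38), Galk1 (0.39) and the fructose transporter Slc2a5 (-1.46), Nhlrc1 (0.37) and Pgm2 (-0.18), Rpia (0.80) and Prps2 (-0.52), and Prkar1a (0.18). Of 9 circadian clock genes 0 passed at lactation against NUL, 2 rose at involution against lactation and 4 were higher in that range, which is 22.2% beside 18.1% of all genes at involution and 44.4% beside 16.5% between the ranges, where the 9 differences ran from -0.56 to 1.42.

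Markers of other liver cells are read against the shares of all genes, with 6.49% lower at lactation and, at involution against lactation, 18.1% higher and 4.73% lower. The 6 Kupffer cell markers summed to 149 to 286 TPM in NUL, 96.5 to 204 in LAC and 329 to 471 in ID6 mice, where 5 of 6 fell at lactation and 6 of 6 rose at involution. Of 6 endothelial markers 2 fell at lactation and 4 rose at involution, with sums of 122 to 156, 66.5 to 125 and 161 to 178 TPM. For 6 stellate cell markers it was 2 and 2, with sums of 134 to 174, 99.6 to 114 and 132.7 to 166 TPM, and for 5 cholangiocyte markers it was 1 and 1 (20% higher at involution, near the share of all genes), with sums of 32.9 to 47.7, 19.4 to 29.6 and 29.4 to 39.8. Of 6 markers of other leukocytes, 5 of them tested, 1 fell at lactation and 5 rose at involution, with sums of 4.42 to 12.4, 3.15 to 6.27 and 11.2 to 14.0 TPM. The 5 erythroid markers summed to 732 to 1489, 829 to 2052 and 124 to 562 TPM, all 3 that were tested fell at involution, and 2 of the 5 were at 0 in every ID6 mouse. Adipocyte markers reached at most 19.1 TPM in any mouse and none passed, and 6 pancreas markers summed to 21 to 42, 4.85 to 12.8 and 17.1 to 28.6 TPM, of which 1 of 4 tested, Cela1, fell at lactation and rose at involution. Of 4 skeletal muscle markers 0 passed between stages and 3 were lower in mice numbered 200 and above. Of 8 hepatocyte markers 1 rose at lactation, and 1 rose and 1 fell at involution against lactation. Alb, which encodes albumin, rose at lactation by 0.86 (SE 0.15, adjusted p = 0.00137), to 100197 TPM from 55208 in NUL mice, and TPM of the other genes are shares of the same total. The part of these shifts in the changes of the 36 genes was not tested.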

How the data were processed

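Liver poly(A) RNA of 19 mice was read from both ends. For alignment the authors used GRCm38, for gene levels RSEM 1.3.1 (submitters' processing notes) on the Ensembl annotation, and what they deposited is a table of TPM per gene and mouse with 2 decimals. TPM keep no depth and are not counts, so the count test of the study was not repeated. Groups came from the labels, each mouse was a separate animal, and no group shares animal numbers with another.

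From these values log2(TPM + 1) was computed, and 16230 genes, those whose mean reached 0.1 TPM, entered limma-trend (limma 3.58.1, R 4.3.3), with 1 mean per stage, all 19 mice and Benjamini-Hochberg adjustment over all genes. Calls required an adjusted p under 0.05. The comparison of ranges of animal number used the 7 NUL and 6 LAC mice. The fit of the higher range alone held all its NUL, LAC and ID6 mice, and that of the lower range held NUL and LAC mice only. The limit of 200 was taken from the animal numbers and no label calls it a batch. Simulated data were used to test only the fit over all mice, at lactation against NUL. They held no difference between the ranges of animal number, so the fits that use the range were not tested. Tables were made in Python 3.11.15, gene positions are from GENCODE M21 and promoters from RefSeq, both on GRCm38.

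The 36 members and all lists were chosen with earlier results of these data known. Of the other pathway genes, the largest rise and fall per list and comparison are named, except that 2 are not reported here. Of the listed symbols, Gyk was not matched. Genes named beyond these rules, such as Alb, were chosen after their values were seen. Other settings were no filter or one at 1 TPM, pseudocounts of 0.5 and 0.1, median-ratio scaling, robust moderation, only the 2 stages compared, range of animal number as a covariate, either range alone, a threshold on the fold change, each mouse left out and, added after seeing the data, 2 NUL mice with over 10 TPM of Ckm, a muscle marker, left out.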

Additional observations from a re-analysis of the deposited data

Results flagged for a closer look

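Values that lay far from the rest of their stage were sought over 108 sets (36 genes in 3 stages) by the gap to the nearest mouse as a share of the whole range, and 7 sets had one beyond the 95% limit of Dixon's test, where chance gives about 1 in 20. In NUL mice these were Ppp1r3g in mouse 4 (19.5 TPM, the next 3.15), Ugp2 in mouse 4 (241 TPM, the next 173), Ldha in 1 mouse of the higher range (977 TPM, the next 705), Irs2 in another (9.70 TPM, the next 6.16) and Pgk1 in 1 more, which was low (197 TPM, the next 252). In LAC mice it was Pfkfb1 in 1 mouse of the lower range (34.2 TPM, the next 20.7), and in ID6 mice Fbp1 in 1 mouse (1170.5 TPM, the next 924). Mouse 4 is also 1 of the NUL mice with skeletal muscle transcripts. In the comparison of the lactation change between the ranges of animal number, no member passed after adjustment, while 13 of the 36 had an unadjusted p under 0.05. That fit, on 7 NUL and 6 LAC mice, does not show that the changes were equal.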

How the results depend on the processing

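No change of a named gene that passed turned its direction in any setting tried. At lactation against NUL, 10 members passed, which stayed at 7 to 12 under the other settings except among mice numbered under 200 alone (2) and with a log2 change of at least 1 required (1), and was 9 without the 2 NUL mice with Ckm over 10 TPM and 8 to 11 with 1 mouse left out. At involution against lactation, 14 passed, or 13 to 15 under the other settings, with 1 at a log2 change of at least 1 and 10 to 14 with 1 mouse left out. At involution against NUL, 3 passed, but 2 with median-ratio scaling (1 of them also before it), 0 with no filter, with the range as a covariate, among mice numbered 200 and above, without the 2 NUL mice and with a log2 change of at least 1, and 0 to 5 with 1 mouse left out, 0 without NUL mouse 1, 4 or 13 or either of 2 ID6 mice, 1 without any of 3 further ID6 mice or 1 NUL mouse of the higher range, and 5 without either of 2 other NUL mice of the higher range. Between the ranges, 13 passed, 8 without the 2 NUL mice and 10 to 14 with 1 mouse left out. The cause of these shifts was not tested, beyond the smaller number of mice in the fits of part of them.

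Counts over all genes moved by more than 1.5 times in part of the fits. At lactation 441 genes were higher and 1053 lower, against 893 and 1655 with the range as a covariate, and the total of 1494 became 533 among mice numbered under 200. At involution against lactation 2936 and 767 became 1719 and 575 among mice numbered 200 and above. At involution against NUL 559 and 148 became 297 and 70 with no filter, 165 and 214 with median-ratio scaling, 174 and 81 with the covariate, 83 and 50 in the higher range and 74 and 32 without the 2 NUL mice, and the total of 707 ran from 245 (without NUL mouse 13) to 1487 (without 1 NUL mouse of the higher range). Between the ranges 2670 and 1479 became 1336 and 1033 without them.

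No paired analysis was possible because no stages share an animal number. At involution against lactation Pgk1 passed in 16 of 19 fits that each left out 1 mouse, and Pgam1 and Ugp2 in 17. Read depth is not kept in TPM, and changes of genes at low TPM are understated by the pseudocount.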
